A study of Mus musculus with 35 samples.

Results

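The 10 genes described here, Mrap, Ror1, Akr1c14, Slc10a6, Tpsab1, Ctla2a, Rab30, Nipal1, Susd1 and Morc4, were chosen because their levels set 2 liver arrays from old mice apart from every other array of the series. The 2 arrays were replicate 1 of the old group taken 24 h after partial hepatectomy and replicate 3 of the old group taken 38 h after it. The genes were chosen by the measured values of those arrays against their groups, so the levels in them are given as a description and carry no test. The 10 genes stand among 18194 genes with a probe set assigned to 1 gene symbol, and each is read on the probe set of its symbol with the highest mean over all 35 arrays. The genes had been put forward as high in the 2 arrays, and 9 of the 10 were. Akr1c14 was lower in both.

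The series followed liver regeneration in male CB6F1 mice with expression arrays. Young mice were 5 to 6 months old and came from the Jackson Laboratories, and old mice were 25 to 27 months old and came from the National Institute on Aging, so age and supplier cannot be told apart. Mice had 70% of the liver removed by partial hepatectomy (PH) or had a sham operation, and livers were taken 24, 38 or 48 h later, with livers at 0 h as the start. The values are log2 signals from RMA, which corrects for background, quantile-normalizes the arrays and summarises the probes of each probe set.

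The young 0 h, young PH 24 h, young PH 38 h and young PH 48 h groups held 3 arrays each, as did the old 0 h, old PH 24 h, old PH 38 h and old PH 48 h groups. Sham operations gave 2 young arrays at 24 h, 1 at 38 h and 2 at 48 h, and 2 old arrays at each of those times. No genetic change or drug distinguished the groups. The labels do not say that replicates came from separate animals, so the p-values below measure the spread between these samples. In whole liver, fewer cells of a type and less RNA per cell cannot be told apart.

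After partial hepatectomy, hepatocytes that had been out of the cell cycle enter it and divide while still carrying on bile acid, steroid and drug metabolism, and this response is slower in old animals. Mrap is an accessory protein that carries the adrenocorticotropic hormone receptor to the cell surface, and Ror1 is a receptor tyrosine kinase-like protein that binds Wnt5a. Akr1c14 is an aldo-keto reductase of the hydroxysteroid dehydrogenase family, and Slc10a6 takes up sulfated steroids. Tpsab1 is a mast cell tryptase gene and Ctla2a encodes a protein related to the propeptide of cathepsin L, whose activity it inhibits. Rab30 is a small GTPase of the Golgi, Nipal1 belongs to a family of magnesium transporters, Susd1 is a membrane protein with sushi domains and Morc4 is a nuclear ATPase of the MORC family.

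Promoter sequences from RefSeq (build GRCm38.p6) were listed for 7 of the 10 genes, with 2 start sites for Ctla2a. The 4 windows below, each the 250 bases before a start site read 5′ to 3′ on the gene's strand, are printed because Slc10a6, Susd1 and Ctla2a were the members with a searched motif and Akr1c14 was the member that went the other way. Capitals mark AGAACA or its reverse complement TGTTCT (the half-site of the glucocorticoid receptor), TGANTCA (AP-1), CACGTG (the E-box), TGACGT (the cyclic AMP response core) and TATAAA (the TATA box).
Slc10a6, chr5:103629404-103629653, minus strand: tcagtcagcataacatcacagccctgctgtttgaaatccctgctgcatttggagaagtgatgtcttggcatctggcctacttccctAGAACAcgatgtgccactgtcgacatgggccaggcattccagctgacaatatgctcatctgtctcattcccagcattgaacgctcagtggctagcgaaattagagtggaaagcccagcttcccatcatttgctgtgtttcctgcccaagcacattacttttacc
Susd1, chr4:59438634-59438883, minus strand: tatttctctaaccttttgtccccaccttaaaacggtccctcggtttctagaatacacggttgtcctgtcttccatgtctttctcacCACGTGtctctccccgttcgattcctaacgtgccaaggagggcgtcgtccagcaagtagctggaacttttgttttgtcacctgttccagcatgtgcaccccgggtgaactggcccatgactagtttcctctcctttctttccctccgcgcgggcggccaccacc
Ctla2a, chr13:60936626-60936875, minus strand: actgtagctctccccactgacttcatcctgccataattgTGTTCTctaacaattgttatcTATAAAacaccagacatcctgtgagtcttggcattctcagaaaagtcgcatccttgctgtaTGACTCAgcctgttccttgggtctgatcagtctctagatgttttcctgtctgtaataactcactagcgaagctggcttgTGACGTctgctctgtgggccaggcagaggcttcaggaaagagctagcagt
Akr1c14, chr13:4059341-4059590, plus strand: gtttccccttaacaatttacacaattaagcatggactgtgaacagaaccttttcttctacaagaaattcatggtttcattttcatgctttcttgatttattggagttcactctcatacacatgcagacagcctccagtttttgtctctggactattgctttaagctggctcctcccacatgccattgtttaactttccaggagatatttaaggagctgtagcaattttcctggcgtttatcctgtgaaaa

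The motifs were searched on both strands in windows of 300 bases, from 250 before to 50 after the start, in 32851 promoters. AGAACA was found for 2 of the 7 members, Slc10a6 and Ctla2a, against 19.0% of all promoters. In Slc10a6 it lay 164 to 159 bases before the start. In Ctla2a it lay on the other strand, 211 to 206 bases before the start of the window printed. TGANTCA was found for Ctla2a alone among the members, against 7.81% of all promoters, and TGACGT also for Ctla2a alone, against 7.51%. CACGTG was found for Susd1 alone, against 7.15%, and TATAAA for Ctla2a alone, against 13.6%. TGTTTAC (forkhead, in 3.65% of promoters) and AGGTCA (a nuclear receptor half-site, in 16.3%) were found for none of the 7 members. The search describes these letters in these windows. No motif was shared by more than 2 of the members, and the Akr1c14 window held none of those searched.

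Before the members, the libraries: old PH 24 h replicate 1 and old PH 38 h replicate 3 were each other's closest array, with a correlation of 0.993 over the 18194 genes. Old PH 24 h replicate 1 correlated at 0.974 and 0.955 with the other arrays of its group, and old PH 38 h replicate 3 at 0.945 and 0.947 with those of its own. The other 32 arrays with a group mate had median correlations of 0.969 to 0.996 with their groups. Between the 2 arrays 8 genes lay more than 1 log2 apart, and 9 of 18194 genes had the same value. Replicate pairs without these arrays had 2 to 332 genes more than 1 log2 apart. The labels put the 2 arrays at different time points. Whether they share an RNA sample or an animal was not tested.

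Each array was set against the mean of the other 2 arrays of its group. Over all genes, 2.61% were 1 log2 or more higher in old PH 24 h replicate 1 and 3.73% that much lower. In old PH 38 h replicate 3 these shares were 3.65% and 5.4%. In both arrays together 1.92% of genes were that much higher, 2.89% that much lower, and 1 gene (0.0055%) went opposite ways. The 9 higher members and Akr1c14 all passed that bound in both arrays, which the choice of the genes fixes, and nothing is read from it. The differences in the 2 arrays correlated at 0.821 over all genes and at 0.817 without the members. That figure is across genes, which are not independent, and each difference also carries the group mates it was taken from.

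**Figure D1:**
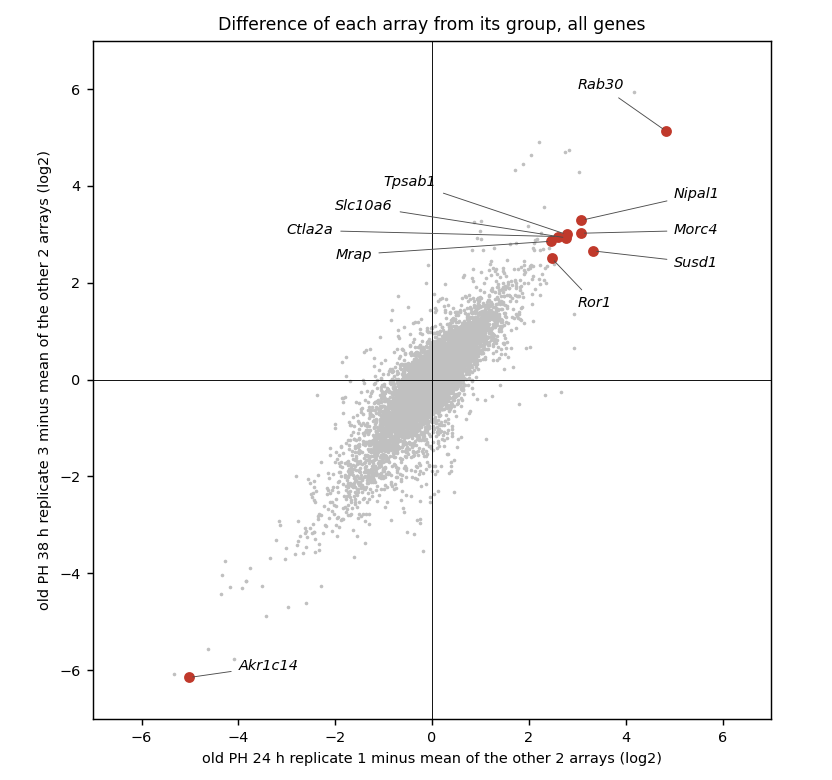
Each point is 1 of 18194 genes, with the log2 difference of old PH 24 h replicate 1 from the mean of the other 2 arrays of its group on the horizontal axis and that of old PH 38 h replicate 3 on the vertical axis. The 10 chosen genes (red, named) lie at the ends of one diagonal cloud, with Rab30 at 4.83 and 5.14 and Akr1c14 at -5.01 and -6.15.

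Mrap (probe set 1451371_at), the accessory protein of the adrenocorticotropic hormone receptor, read 13.83, 11.99 and 10.76 log2 on replicates 1, 2 and 3 of old PH 24 h. On replicates 1, 2 and 3 of old PH 38 h it read 11.13, 11.10 and 13.97. The difference from the group mates was 2.46 log2 (5.50-fold) at 24 h and 2.86 (7.25-fold) at 38 h. Replicate 1 at 24 h and replicate 3 at 38 h were the highest arrays of the series, and replicate 2 at 24 h came next. The 29 arrays of the other 12 groups ran from 9.74 (young 0 h replicate 3) to 11.71 (young PH 48 h replicate 1), with a median of 10.88.

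Ror1 (1429313_at), the Wnt5a-binding receptor, read 10.13, 8.17 and 7.15 log2 on the 3 old PH 24 h arrays. It read 7.22, 7.15 and 9.69 on the 3 old PH 38 h arrays, so that the differences were 2.47 (5.55-fold) and 2.51 (5.68-fold). The 29 arrays of the other groups ran from 6.65 (young PH 48 h replicate 1) through a median of 7.30 to 8.27 (old 0 h replicate 1). The same 2 arrays stood above all others, and replicate 2 of old PH 24 h lay within the range of the other groups.

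Akr1c14 (1418979_at), the hydroxysteroid dehydrogenase, read 5.78, 9.72 and 11.87 log2 on the 3 old PH 24 h arrays. On the 3 old PH 38 h arrays it read 11.58, 11.56 and 5.42. These are differences of -5.01 and -6.15, or levels 32.3-fold and 71.1-fold below the group mates. Over the other 33 arrays its range, 3.51 log2, was the widest of the 10 genes. Young 0 h arrays read 13.23, 12.96 and 13.22 and old 0 h arrays 12.94, 12.83 and 12.74. The 11 sham arrays ran from 11.83 through a median of 12.35 to 12.60. The 9 young PH arrays ran from 11.00 through 11.81 to 12.55, and the 3 old PH 48 h arrays read 11.09, 11.34 and 11.91. All 29 arrays were at 11.00 or above, and both arrays in question were below 6. Replicate 2 of old PH 24 h lay between, below every array of the other groups.

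Slc10a6 (1428776_at), the sulfated steroid transporter, read 11.02, 8.23 and 8.25 log2 on the old PH 24 h arrays and 8.19, 8.09 and 11.07 on the old PH 38 h arrays. The differences were 2.78 (6.85-fold) and 2.93 (7.61-fold). All other groups together spanned 7.90 to 8.50, with a median of 8.23. The range of the other 33 arrays was the narrowest of the 10 genes, at 0.60 log2, and the nearest of them, young 0 h replicate 2, lay 2.51 log2 below.

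Tpsab1 (1426175_a_at) is listed by RefSeq as a transcribed pseudogene of the tryptase family. It read 8.95, 6.06 and 6.28 log2 on the old PH 24 h arrays and 6.15, 6.08 and 9.11 on the old PH 38 h arrays. The differences were 2.78 (6.87-fold) and 3.00 (7.99-fold). In the other groups it ran from 5.77 to 6.40 with a median of 6.00, and no array other than the 2 left that band.

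Ctla2a (1448471_a_at), the cathepsin inhibitor gene, read 11.23, 9.74 and 7.50 log2 on the old PH 24 h arrays and 7.28, 7.53 and 10.36 on the old PH 38 h arrays. The differences were 2.60 (6.07-fold) and 2.96 (7.76-fold). In the other groups it ran from 6.43 (young sham 38 h replicate 1) through 7.10 to 8.59 (young PH 38 h replicate 2). Here the separation was the smallest of the 10 genes: old PH 24 h replicate 2 lay 0.62 log2 below old PH 38 h replicate 3 and above every array of the other groups.

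Rab30 (1426452_a_at), the Golgi GTPase, had the largest positive differences of the 10. It read 12.72, 8.62 and 7.17 log2 on the old PH 24 h arrays and 6.98, 7.65 and 12.45 on the old PH 38 h arrays, which is 4.83 (28.4-fold) and 5.14 (35.2-fold) above the group mates. Young 0 h arrays read 7.56, 8.82 and 7.87 and old 0 h arrays 8.50, 7.24 and 8.13. The sham arrays ran from 6.79 through 7.43 to 7.98, young PH arrays from 7.06 through 7.42 to 7.67, and old PH 48 h arrays read 7.33, 7.02 and 7.38. The highest array outside the 2, young 0 h replicate 2, lay 3.63 log2 below the lower of them.

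Nipal1 (1453345_at), the magnesium transporter-like gene, read 11.59, 8.94 and 8.07 log2 on the old PH 24 h arrays and 8.26, 8.56 and 11.70 on the old PH 38 h arrays. The differences were 3.09 (8.50-fold) and 3.29 (9.79-fold). Young 0 h arrays read 7.96, 8.07 and 7.78, old 0 h arrays 7.46, 8.08 and 7.83, and the sham arrays ran from 7.38 through 7.65 to 8.22. The young PH 48 h arrays at 9.73, 9.86 and 8.91 and the old PH 48 h arrays at 9.68, 9.16 and 9.004 were high among the others, as were young PH 38 h replicate 1 at 9.10 and old PH 24 h replicate 2. The nearest to the 2 arrays was young PH 48 h replicate 2, with a gap of 1.73 log2.

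Susd1 (1458245_at), the sushi-domain gene, read 11.34, 8.52 and 7.51 log2 on the old PH 24 h arrays and 7.95, 8.55 and 10.91 on the old PH 38 h arrays, for differences of 3.33 (10.04-fold) and 2.66 (6.32-fold). The other groups spanned 6.97 (young PH 48 h replicate 3) to 9.42 (old sham 38 h replicate 1) around a median of 8.19. Morc4 (1434436_at), the MORC ATPase, read 9.53, 6.88 and 6.03 on the old PH 24 h arrays and 6.26, 6.25 and 9.28 on the old PH 38 h arrays. Its differences were 3.07 (8.41-fold) and 3.02 (8.13-fold), against a range of 5.70 to 6.97 and a median of 6.04 in the other groups. For both genes the 2 arrays were apart from all others and replicate 2 of old PH 24 h lay inside the range of the other groups.

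**Figure D2:**
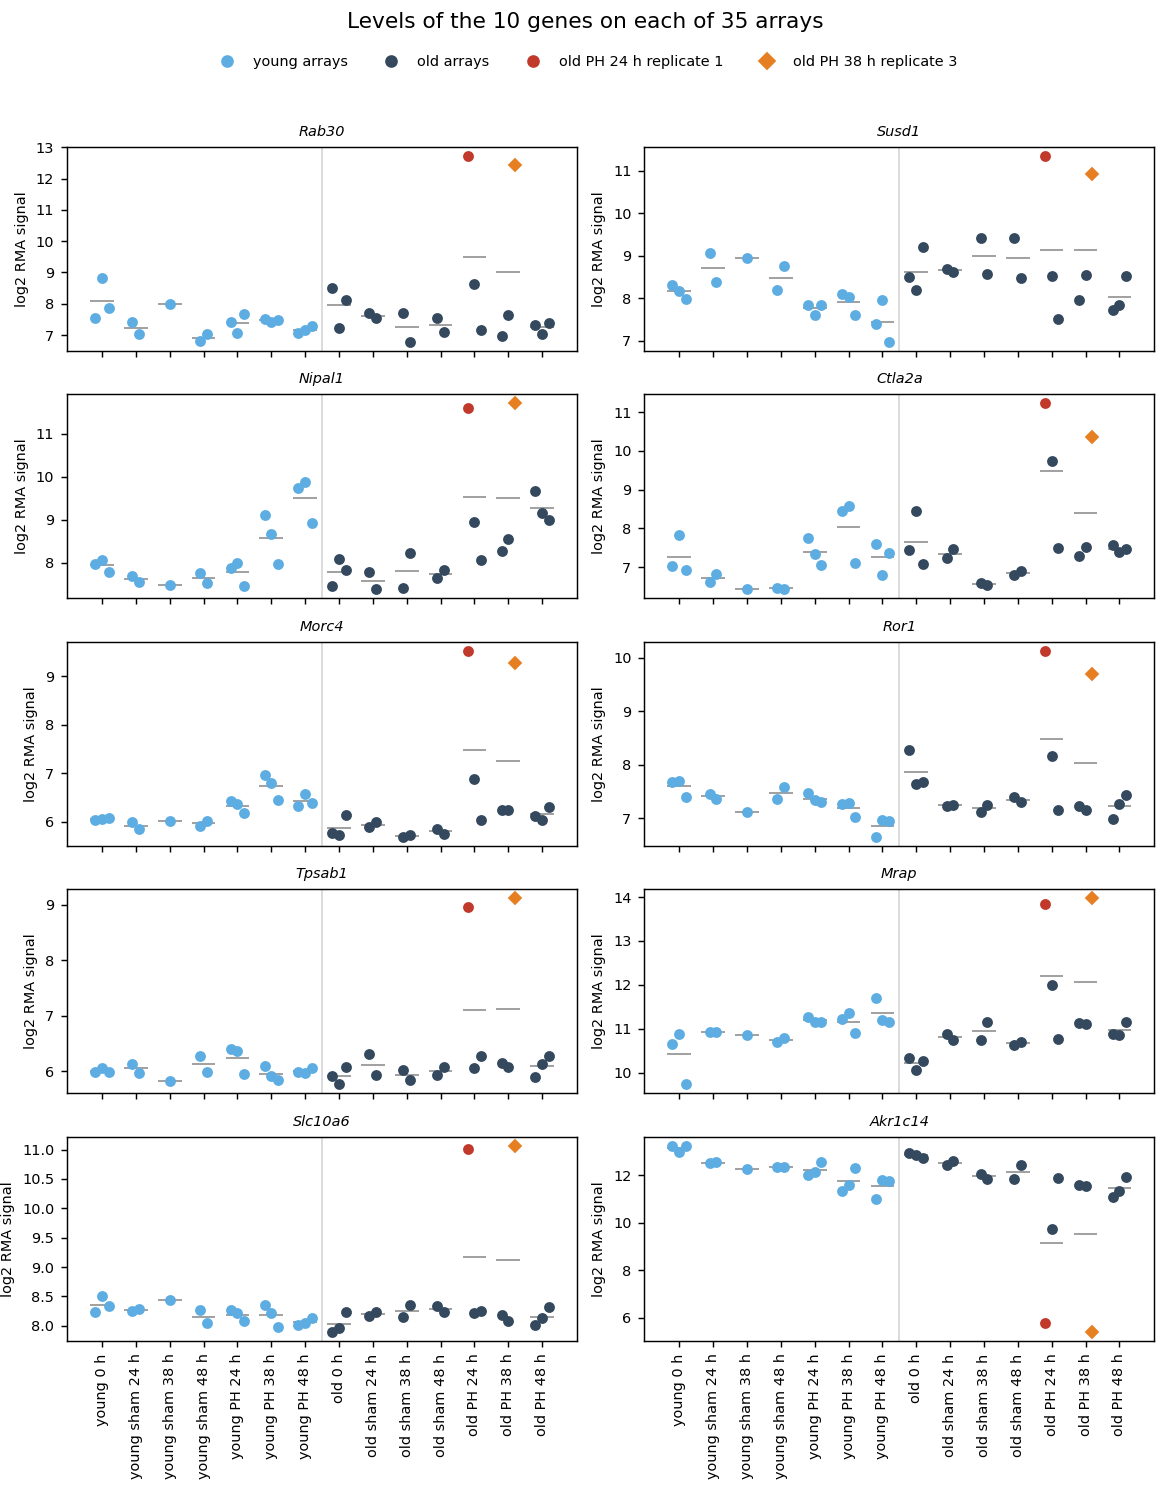
Log2 RMA signal of the 10 genes on each of 35 arrays, by group, with young arrays in light blue, old arrays in dark blue, old PH 24 h replicate 1 as a red circle and old PH 38 h replicate 3 as an orange diamond. Grey lines are group means. In each panel the red and orange points lie beyond all other arrays, above them in 9 panels and below them for Akr1c14.

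The members also differed in how far apart they placed the 2 arrays. The distance between old PH 24 h replicate 1 and old PH 38 h replicate 3 was largest for Ctla2a, at 0.86 log2, had a median of 0.26 over the 10 genes, beside 0.159 over all 18194 genes, and was under 0.4 for 7 of them. All 10 genes had both arrays outside the range of the other 33. Over all genes, 10.2% had both arrays above that range and 9.33% had both below it. The gap to the nearest other array ran from 0.62 (Ctla2a) to 3.94 (Akr1c14). Ranked over all 18194 genes by the smaller of the 2 differences, Rab30, Nipal1 and Morc4 were numbers 1, 3 and 5 among the higher genes, and the lowest-ranked higher member, Mrap, was number 13. Akr1c14 was number 2 among the lower genes. Tpsab1, Slc10a6, Susd1, Ctla2a and Ror1 ranked 7, 8, 10, 11 and 12, so the list took most of the top of the ranking but not all of it. The genes just inside and just outside it differed little in value: Mrap had 2.46 as its smaller difference, and Lyve1, an endothelial gene that was not chosen, had 2.42.

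The mean of the 9 higher members, each relative to the 0 h mean of its age, placed the arrays on one scale. It was 3.38 log2 on old PH 24 h replicate 1 and 3.18 on old PH 38 h replicate 3. It was 0.80 on old PH 24 h replicate 2 and between -0.24 (young sham 48 h replicate 1) and 0.35 (young PH 38 h replicate 1) on the 29 arrays of the other groups. On the same reference Akr1c14 was at -7.05 and -7.42 on the 2 arrays and at -3.11 on old PH 24 h replicate 2. Old PH 24 h replicate 2 was beyond all 29 arrays of the other groups for 3 of 10 members: Ctla2a, by 1.15 log2, Mrap, by 0.28, and Akr1c14, by 1.28. Over all genes, 6.57% had it above those 29 arrays and 6.99% below. The remaining array of old PH 24 h (replicate 3) and replicates 1 and 2 of old PH 38 h had scores of -0.14, -0.06 and 0.11, within the range of the other groups.

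Outside the 2 arrays' groups the members followed each other little. Over the 29 arrays of the other groups, the correlation of a member with the mean of the standardised values of all 10 genes, itself included, ran from 0.03 for Nipal1 and 0.10 for Susd1 to 0.51 for Slc10a6 and 0.54 for Rab30. Over all 35 arrays it was 0.77 (Susd1) to 0.96 (Slc10a6) for the 9 higher members and -0.93 for Akr1c14. The 35 arrays include the 2 by which the genes were chosen, so that choice largely fixes the higher values and nothing is read from the contrast. Akr1c14 entered the mean with its own sign. These are descriptions over arrays that share groups and normalization.

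A group of 6 members has a single probe set. The other 4, Rab30, Nipal1, Ror1 and Mrap, have 5 further probe sets, and 1 of these 5 was past 1 log2 in both arrays. That probe set, 1456321_at of Nipal1, read 7.88 and 6.50 on the 2 arrays, with differences of 2.68 and 1.57 and a range of 4.48 to 6.12 elsewhere. For Rab30, 1440325_at gave 0.07 and -0.07, and for Mrap, 1451966_at gave 0.12 and -0.01. For Ror1, 1429312_s_at gave 0.62 and 0.94, just above all other arrays, and 1451014_at gave 0.26 and 0.10. Each of these further probe sets had a lower mean level than the one used. A probe set shared by Ctla2a and its close relative Ctla2b, 1416811_s_at, gave 2.13 and 2.78. Averaging the probe sets of a gene lowered the Rab30 differences to 2.45 and 2.53, the Ror1 differences to 1.12 and 1.18 and the Mrap differences to 1.29 and 1.42. Nipal1 alone of these 4 had every probe set outside the range of the other 33 arrays in both arrays. Ctla2a and Akr1c14 have close relatives, and signal from a relative on their probe sets was not tested.

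**Figure D3:**
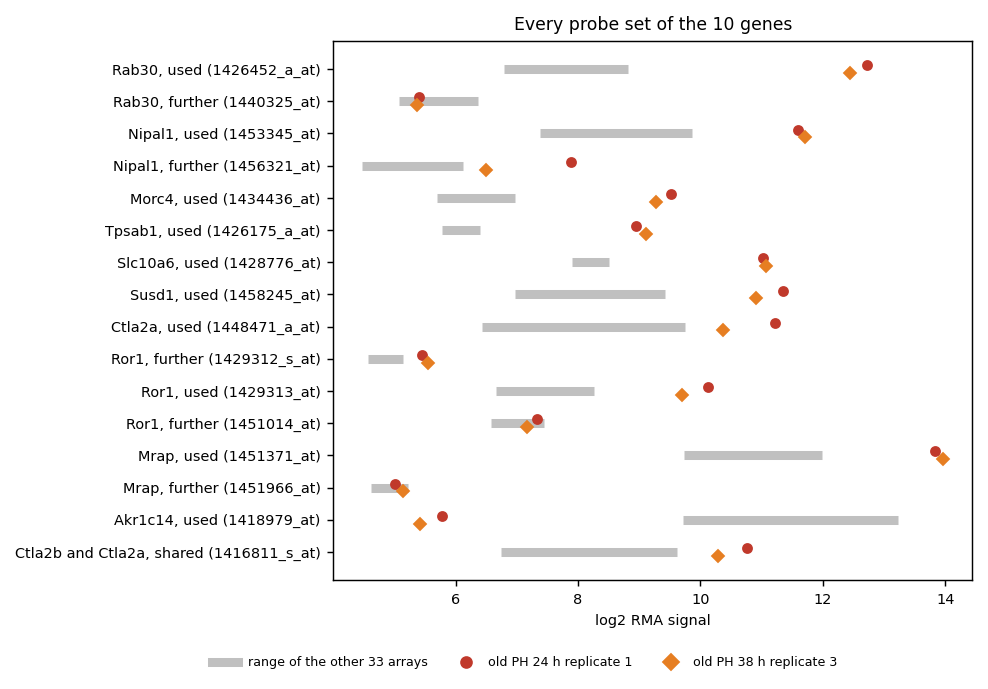
Log2 RMA signal of every probe set of the 10 genes, named by gene and probe set, with the range of the other 33 arrays as a grey bar, old PH 24 h replicate 1 as a red circle and old PH 38 h replicate 3 as an orange diamond. The further probe sets of Rab30 and Mrap and 1 of the 2 of Ror1 lie inside the grey bars, and the probe set shared by Ctla2a and Ctla2b lies above its bar.

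The relatives of the members were read in the same 2 arrays. Of 34 measured genes of the same families, 1 was higher by 1 log2 or more in both arrays (Ctla2b, 1.24 and 1.57), beside 1.92% of all genes, and 3 were lower (Akr1c20, Akr1c6 and Akr1c19), beside 2.89%. Akr1c20 and Akr1c6 are aldo-keto reductases like Akr1c14. Akr1c20 had differences of -4.08 and -5.78 and Akr1c6 of -3.52 and -4.26, while their relatives Akr1c21, at 0.24 and 0.11, and Akr1c18, at -0.01 and -0.36, stayed near their group mates. Morc3 had 0.81 and 1.01, Ror2 -0.34 and -0.00, and the second tryptase Tpsb2 -0.39 and -0.36. Slc10a1, the bile acid uptake transporter of hepatocytes, was at -0.78 and -2.26. Of the nearest measured genes on either side of the members in RefSeq's order, 0 of 20 were past 1 log2 in both arrays. Mis18a beside Mrap came nearest, at 1.34 and 0.41.

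Steroid metabolism and transport, the setting of Akr1c14 and Slc10a6, was read on 21 genes outside the members. Several of them, such as Akr1c20, Akr1c6 and Akr1c19, are also among the relatives above, so the 2 lists are not separate. In both arrays 1 of 21 was higher by 1 log2 or more and 5 were lower, with medians of -0.58 and -0.71 against -0.01 and 0.02 over all genes. The higher gene was Sult1e1, the estrogen sulfotransferase, at 4.17 and 5.94. Hsd3b5, a hydroxysteroid dehydrogenase, had -2.30 and -4.25, and Akr1d1, which reduces bile acid and steroid intermediates, -1.53 and -2.86. Mc2r, the receptor that Mrap serves, was at -0.06 and -0.69, with levels of 6.30 and 6.03. Mrap2, the other accessory protein, was at -0.15 and 0.24. The receptor gene did not read higher where Mrap did, but its signal was low and a change at that level could go unseen.

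Other lists set the 2 arrays apart to differing degrees, and several did not. Of all genes, 1.92% were higher by 1 log2 or more in both arrays and 2.89% lower, and the counts here and for the markers below stand beside these shares. Of 16 measured genes of cholesterol synthesis, 13 were lower by 1 log2 or more in both arrays, with medians of -1.39 and -1.98. Idi1, an isomerase of the pathway, had -2.41 and -3.29, and Cyp51, a sterol demethylase, -2.12 and -2.86. The mean level of this list was 10.02 and 9.85 in the 2 arrays, against 9.96 to 12.36 in the other 33. In young PH 24 h against sham, 14 of the 16 also fell in the limma test given below, with a median of -1.57. Of all genes, 4.45% were called there in either direction. Lower levels of this list were thus not particular to the 2 arrays. Of 21 cytochrome P450 and bile acid genes, 5 were lower in both, among them Slco1b2, a hepatocyte uptake transporter, at -5.33 and -6.08, and Abcb11, the bile salt export pump, at -3.02 and -3.48. Of 19 glucocorticoid-induced genes, 4 were higher in both (Dusp1, Gadd45a, Per1 and Angptl4) and 0 were lower in both, with medians of 0.50 and 0.81. The mean level of that list was 11.96 and 11.83, above the 10.70 to 11.73 of the other 33 arrays. Dusp1, a phosphatase, had 1.74 and 2.82, while Tsc22d3, another gene of that list, had -0.97 and -1.28. Of 19 fasting and PPAR alpha genes, 3 were higher in both, with Pdk4 at 2.20 and 4.92 and Cidec at 2.83 and 4.75, and 2 were lower. The 26 genes of S phase and mitosis had a mean level of 7.49 and 7.51 in the 2 arrays. The other arrays of old PH 24 h had 7.18 and 7.67, and those of old PH 38 h had 8.74 and 9.72. At 24 h 0 of the 26 were lower than the group mates by 1 log2 or more, and at 38 h 22 were. Of 18 ATF4 and ER stress genes 3 were higher and 2 lower in both arrays, and of 17 early response genes 3 and 0. Of 19 acute phase genes the counts were 1 and 3, and of 13 interferon genes 0 and 0. The list means of the 2 arrays lay inside the range of the other 33 for each of these lists and for the fasting and S phase lists. For the P450 and bile acid list they lay below it, at 10.80 and 10.62 against 11.48 to 13.16. Taken singly, 5 of its 21 genes were lower by 1 log2 or more in old PH 24 h replicate 1 and 14 in old PH 38 h replicate 3. In the limma test at 48 h against sham, 12 of the 21 fell in young mice, beside 12.1% of all genes. In old mice 10 fell, beside 10.8%. A fall of this list was thus not particular to the 2 arrays, though its mean level was lowest there.

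Markers of other cells that could bear on the members were read in the same way. Of 12 mast cell genes, 0 were higher by 1 log2 or more in either array, although Tpsab1 is a tryptase gene. The mean level of the list was 6.69 and 6.89 in the 2 arrays and 6.72 to 7.08 in the other 33. Cpa3, the mast cell carboxypeptidase, was at -0.20 and -0.18 and Cma1, a chymase, at -0.05 and -0.26. Of 7 adrenal genes 0 were higher, with a mean level of 7.42 and 7.49 against 7.05 to 8.02 elsewhere. Of 11 T and NK cell genes 0 were higher, with 6.89 and 7.13 against 6.83 to 7.21 elsewhere. Of 6 adipose genes 1 was higher in both, Fabp4 at 2.11 and 2.68, while Adipoq, which defines fat cells, was at -0.60 and -0.05 with levels of 4.74 and 5.26. Of 4 erythroid genes and of 8 pancreas and gut genes 0 were higher in either array. The array signal has no true zero, so no marker can be placed at 0.

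Endothelial and other liver cells showed differences in both directions. Of 12 endothelial genes, 2 were higher in both arrays (Lyve1 at 2.42 and 2.72 and Cdh5 at 1.16 and 1.33) and 4 were lower, among them Clec4g at -2.20 and -3.003. The list mean was 8.32 and 8.21, below the 8.55 to 9.13 of the other 33 arrays. Of 13 macrophage and neutrophil genes, 2 were higher (S100a8 and S100a9) and 3 lower (Clec4f, Vsig4 and Cd5l). Of 12 stellate and fibroblast genes 0 were higher and 1 was lower in both, and of 6 cholangiocyte genes 0 were either. Of 8 hepatocyte genes 0 were higher and 1, Cps1 of the urea cycle, was lower at -1.08 and -1.42. The mean level of the hepatocyte list was 14.03 and 14.01, below the 14.24 to 14.40 of the other 33 arrays. Alb, the plasma albumin gene, was at 14.85 on both arrays and at 14.80 to 14.94 on the others, near the top of the signal range, where a difference could go unseen. The part of these lists in the members' levels was not tested.

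**Figure D4:**
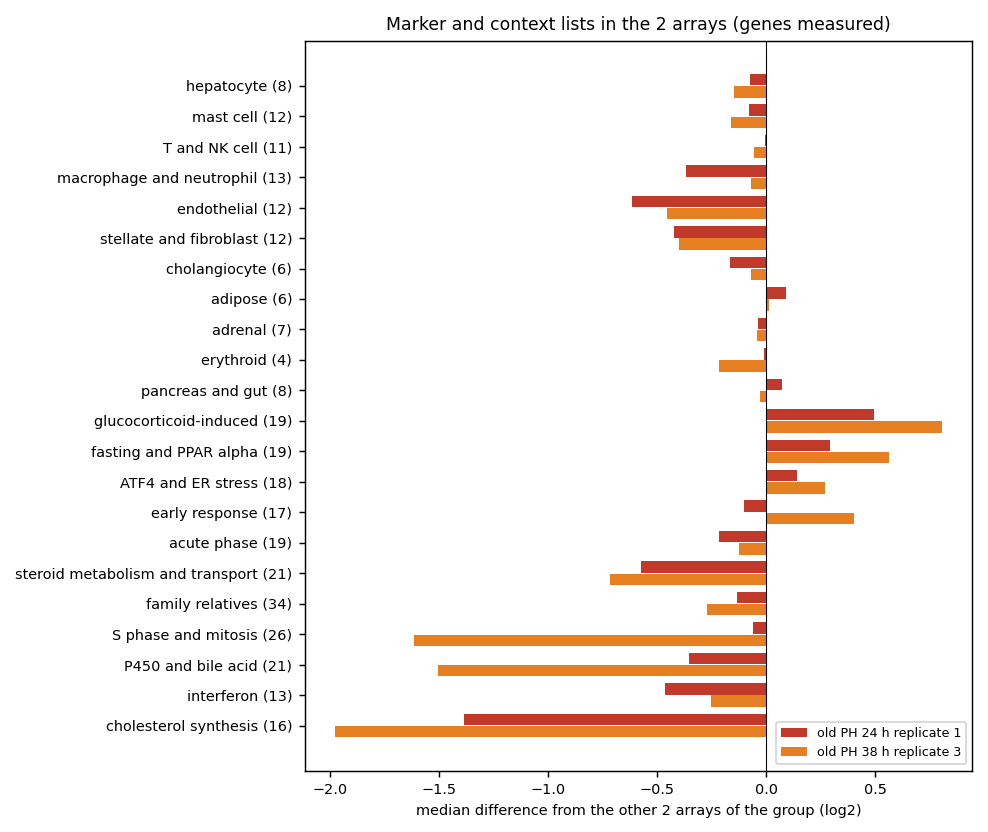
Median log2 difference of the genes of each list (number measured in parentheses) from the other 2 arrays of the group, for old PH 24 h replicate 1 (red) and old PH 38 h replicate 3 (orange). Cholesterol synthesis has the lowest median in both arrays, at -1.39 and -1.98, and the S phase and mitosis list is at -0.06 in one array and -1.62 in the other.

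RNA quality measures of the 2 arrays lay within those of the others. The 3′ minus 5′ difference was 0.18 and 0.12 log2 for Gapdh, against 0.05 to 0.29 in the other 33 arrays. For actin it was 0.67 and 0.62, against 0.45 to 1.07. The mean of 9 hybridisation control probe sets was 11.21 and 10.93, against 10.81 to 11.80. The highest Gapdh values of the series, 0.29 and 0.27, were on old PH 38 h replicates 1 and 2, the group mates of replicate 3. Their actin values were 0.78 and 1.04. The group mates at 24 h, replicates 2 and 3, had 0.12 and 0.10 for Gapdh and 0.45 and 0.57 for actin. The part of this in the differences from the group mates was not tested.

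The other 12 groups, which the choice of the genes did not use, allow tests. A limma model over their 29 arrays was fitted to all 18194 genes, with p-values adjusted over all genes by the Benjamini-Hochberg method and a threshold of 0.05, and differences are given ± standard error on the log2 scale. The young PH groups share the young 0 h arrays in the comparisons with 0 h, and each sham array serves in more than 1 comparison, so the comparisons are not independent of one another.

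Nipal1 was the member with the clearest response to hepatectomy in both ages. At 48 h after PH against sham it rose in young mice, from 7.76 and 7.53 on the sham arrays to 9.73, 9.86 and 8.91, by 1.86 ± 0.30 (adjusted p = 7.63e-05, limma). It rose in old mice, from 7.65 and 7.83 to 9.68, 9.16 and 9.004, by 1.54 ± 0.30 (adjusted p = 0.000823, limma). The PH and sham arrays did not overlap in either age. In young mice at 38 h the difference from the single sham array was 1.11 ± 0.38 (adjusted p = 0.0577, limma) and at 24 h 0.15.

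In young mice at 48 h, 6 of the 10 members passed the test against sham, beside 28.1% of all genes. Of these, 3 rose, beside 16% of genes. These were Nipal1, Morc4, by 0.46 ± 0.13 (adjusted p = 0.0117, limma), and Mrap, by 0.61 ± 0.22 (adjusted p = 0.0459, limma). Morc4 read 6.32, 6.57 and 6.39 on the PH arrays against 5.91 and 6.03 on the sham arrays. Mrap read 11.71, 11.19 and 11.16 against 10.70 and 10.79. Both sets of arrays were apart, though by far less than in the 2 old arrays.

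The other 3 members fell at 48 h in young mice, beside 12.1% of genes. Akr1c14 fell by 0.81 ± 0.26 (adjusted p = 0.0237, limma), with 11.00, 11.81 and 11.77 on the PH arrays against 12.35 and 12.32. Susd1 fell by 1.03 ± 0.34 (adjusted p = 0.0248, limma), with 7.39, 7.96 and 6.97 against 8.19 and 8.76. Ror1 fell by 0.61 ± 0.16 (adjusted p = 0.00545, limma), with 6.65, 6.96 and 6.95 against 7.35 and 7.57. Susd1 and Ror1 thus went opposite to their place in the 2 old arrays, and Akr1c14, Nipal1, Morc4 and Mrap went the same way. The count of 6 became 3 when young sham 48 h replicate 1 was left out, 2 when replicate 2 of that sham group was, and 3 when young PH 48 h replicate 1 was. The call of Mrap was lost in 22 of 40 alternative fits, and with the mean of its probe sets its rise was 0.34. The call of Susd1 was lost without young PH 48 h replicate 1, replicate 3 of that group or young sham 48 h replicate 2, that of Ror1 without young sham 48 h replicate 2 and that of Morc4 without young sham 48 h replicate 1. The call of Akr1c14 was lost without either of those sham arrays or without young PH 48 h replicate 1.

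In old mice at 48 h against sham, Nipal1 was the 1 member past the threshold, beside 24.4% of all genes and 13.6% in its direction. Susd1 had -0.91 ± 0.34 (adjusted p = 0.0506, limma), Morc4 0.35 ± 0.13 (adjusted p = 0.0536, limma) and Akr1c14 -0.67 ± 0.26 (adjusted p = 0.0627, limma). These signs were those of the young mice. The count rose to between 2 and 4 in 20 of the 40 alternative fits, with 4 when young PH 38 h replicate 3 was left out, with array weights and with repeated quantile normalization.

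Whether the response at 48 h differed between ages was tested directly as the difference of the differences. By limma 0 of the 10 members and 0% of all genes passed, with 1 member (Ror1) and 3.76% of genes at an unadjusted p under 0.05. Ror1 differed by 0.49 ± 0.22, being -0.61 in young and -0.12 in old mice. For Nipal1 the difference was -0.32 ± 0.42, for Morc4 -0.11 ± 0.19, for Mrap -0.31 ± 0.32 and for Akr1c14 0.14 ± 0.37. For these 4 genes the standard error was larger than the difference.

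At 38 h in young mice, where sham gave 1 array that is taken to vary like the other groups, 2 members rose, beside 12.4% of all genes and 9.01% in that direction. Ctla2a rose by 1.62 ± 0.47 (adjusted p = 0.0273, limma), from 6.43 to 8.45, 8.59 and 7.10. Morc4 rose by 0.73 ± 0.17 (adjusted p = 0.00554, limma), from 6.02 to 6.97, 6.80 and 6.46. Young PH 38 h replicate 2 had the highest Ctla2a level and replicate 1 the highest Morc4 level of the 29 arrays. Without young PH 38 h replicate 1 or without replicate 2 the call of Ctla2a was lost and 1 member was left.

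At 24 h in young mice 0 of the 10 members passed against sham by limma, beside 4.45% of all genes, with 2 members (Morc4 and Susd1) and 18.7% of genes at an unadjusted p under 0.05. Morc4 had 0.40 ± 0.13 and Susd1 -0.96 ± 0.34. Rab30, at 0.16, and Tpsab1, at 0.18, were near the sham level. Without young PH 38 h replicate 3 in the fit, which enters through the shared spread, 1 member passed.

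Against 0 h, Akr1c14 fell at each time tested. In young mice it fell by 0.91 ± 0.23 at 24 h (adjusted p = 0.00588, limma), with differences of -1.40 ± 0.23 at 38 h (adjusted p = 5.66e-05, limma) and -1.61 ± 0.23 at 48 h (adjusted p = 1.25e-05, limma). In old mice at 48 h it fell by 1.39 ± 0.23 (adjusted p = 0.000121, limma). Its levels at 0 h, 12.74 to 13.23 over both ages, did not overlap with any PH array. These falls are small beside the -7.05 and -7.42 of the 2 old arrays against the old 0 h mean.

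Mrap rose against 0 h at each of the same points. It rose by 0.77 ± 0.20 at 24 h (adjusted p = 0.00647, limma), 0.74 ± 0.20 at 38 h and 0.93 ± 0.20 at 48 h in young mice and by 0.75 ± 0.20 at 48 h in old mice. The young 0 h arrays read 10.64, 10.88 and 9.74 and the old 10.33, 10.05 and 10.27. Without young 0 h replicate 3, the lowest of these, the rise was 0.43 at 24 h and 0.40 at 38 h, neither past the threshold, and 0.59 at 48 h, which was. With the mean of the 2 probe sets of Mrap the rises in young mice were 0.40, 0.40 and 0.49, all past the threshold, and that in old mice was 0.31 and not past it.

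Other members also changed against 0 h. Ror1 fell by 0.40 ± 0.14 at 38 h and 0.74 ± 0.14 at 48 h in young mice and by 0.64 ± 0.14 at 48 h in old mice. With the mean of its probe sets these differences were -0.17, -0.34 and -0.19, and of these the one at 48 h in young mice was past the threshold. The call at 38 h was also lost without young 0 h replicate 1, young 0 h replicate 2 or young PH 38 h replicate 3. Nipal1 rose by 1.56 ± 0.27 at 48 h in young and 1.49 ± 0.27 in old mice, and Morc4 rose by 0.68 ± 0.12 at 38 h and 0.37 ± 0.12 at 48 h in young mice, the latter not past the threshold without young PH 48 h replicate 2. Rab30 fell by 0.91 ± 0.29 (adjusted p = 0.0160, limma) and Slc10a6 by 0.29 ± 0.11 (adjusted p = 0.0359, limma) at 48 h in young mice. Without young 0 h replicate 2, at 8.82 the highest Rab30 array of the group, the fall of Rab30 was 0.54 and not past the threshold, and its call was also lost without young PH 48 h replicate 1. That of Slc10a6 was lost without young 0 h replicate 2 or 3 or young PH 48 h replicate 1 or 2. In this comparison with 0 h Rab30 and Slc10a6 thus went down where the 2 old arrays were up. Against sham at 48 h in young mice Rab30 was at 0.26 and Slc10a6 at -0.09, neither past the threshold. In all, 2, 4 and 7 members passed at 24, 38 and 48 h in young mice, beside 27.3%, 40.5% and 36.6% of all genes. In old mice at 48 h 4 passed, beside 25.9%. Tpsab1 passed in no comparison, with its largest difference against 0 h at 0.22.

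**Figure D5:**
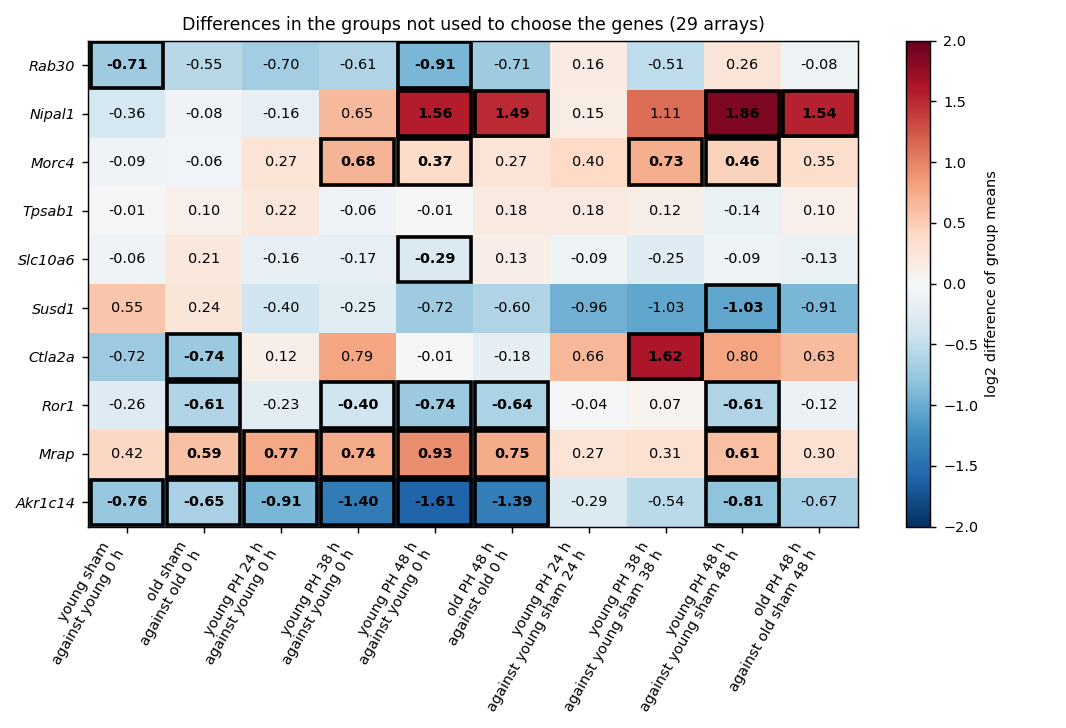
Log2 differences of group means from limma over 29 arrays, for the 10 genes (vertical) in 10 comparisons (horizontal), from blue (lower) to red (higher). Black outlines and bold type mark an adjusted p under 0.05. Nipal1 is outlined in all 4 comparisons of PH at 48 h, Akr1c14 in all 6 comparisons with 0 h, and Tpsab1 in none.

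Sham arrays were also set against the 0 h arrays of their age, where the operation and the time after it cannot be told apart. The share of members called was below that of all genes in young mice and near it in old mice. Young sham arrays against young 0 h gave 2 members, beside 42.2% of all genes: Akr1c14 fell by 0.76 ± 0.21 (adjusted p = 0.00675, limma) and Rab30 by 0.71 ± 0.26 (adjusted p = 0.0336, limma). Without young 0 h replicate 2 the Rab30 difference was -0.34, and its call was also lost without young sham 24 h replicate 2 or young sham 48 h replicate 1. Old sham against old 0 h gave 4 members, beside 36.8% of genes: Mrap rose by 0.59 ± 0.17, and Akr1c14 fell by 0.65 ± 0.20, Ror1 by 0.61 ± 0.12 and Ctla2a by 0.74 ± 0.29 (adjusted p = 0.0490, limma). Without old 0 h replicate 1 the count was 2, and without old 0 h replicate 2 the Ctla2a difference was -0.34; its call was lost in 25 of 39 alternative fits. The call of Mrap was lost without old 0 h replicate 2. With the mean of the probe sets the differences were 0.37 for Mrap, still past the threshold, and -0.12 for Ror1, which was not. The hybridisation controls read 10.93 to 11.80 on sham arrays, 11.08 to 11.21 on 0 h arrays and 10.81 to 11.21 on PH arrays, and their part in these differences was not tested.

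Old mice were set against young mice at 0 h, after sham and at PH 48 h. The few genes called in each comparison leave these counts of members uninformative. By limma 0 of 10 passed at 0 h, beside 0.687% of all genes, with 1 member (Slc10a6, -0.32 ± 0.11) and 14.2% of genes at an unadjusted p under 0.05. Old against young sham also gave 0, beside 0.319%, with 0 members and 12.8% of genes at an unadjusted p under 0.05. At PH 48 h 0 passed, beside 0.33%, with 2 members and 11.7% of genes at an unadjusted p under 0.05. Those were Morc4, at -0.27 ± 0.12, and Ror1, at 0.37 ± 0.14. Akr1c14 at 0 h was lower in old mice by 0.30 ± 0.23 (adjusted p = 0.592, limma). The old PH 24 h and old PH 38 h groups were set against no young group, because the choice of the genes used them.

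The relatives of the members were read in the same fits. At 48 h against sham, 3 of 34 rose and 4 fell in young mice, beside 16% and 12.1% of all genes. In old mice 7 rose and 7 fell, beside 13.6% and 10.8%. Morc3 rose in both, by 1.38 ± 0.16 and 1.35 ± 0.16 (limma). Slc10a2, the ileal bile acid transporter gene, rose by 1.04 ± 0.33 and 1.19 ± 0.33, and Slc10a1 fell by 1.17 ± 0.27 and 0.92 ± 0.27. Tpsb2 fell by 0.33 ± 0.10 and 0.34 ± 0.10. Of the 21 steroid genes 1 rose and 5 fell in young mice and 2 rose and 4 fell in old mice, beside the same shares of all genes. Among them Hsd11b1, which regenerates active glucocorticoid, fell by 1.02 ± 0.13 and 0.95 ± 0.13. Akr1c20, which was among the lowest genes of the 2 old arrays, rose in old mice by 0.50 ± 0.12 (adjusted p = 0.00567, limma).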

How the data were processed

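The deposited values of the 35 arrays are log2 signals, normalized by the authors with RMA per the submitters' processing notes; the version is not given in the sources used here. Samples were grouped by their labels. The members and lists were chosen with earlier results of these data known. Of 45101 probe sets, 34958 had 1 gene symbol in the platform table, and 932 with several symbols were left out. Each gene took the probe set whose mean over the 35 arrays was highest, which gave 18194 genes. Precision is limited by the number of arrays.

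Old PH 24 h and old PH 38 h (6 arrays) were described only. The other 29 arrays were fitted with limma 3.58.1 (R 4.3.3) with 1 mean per group, 17 residual and 4.82 prior degrees of freedom, 14 contrasts and Benjamini-Hochberg adjustment over all genes. Sham contrasts with 0 h and between ages average the sham times. The script was tested on simulated data. Named genes are the 10 members, up to 4 genes of a list, the 5 highest and 5 lowest other genes and the 5 most like the members' mean over 35 and over 29 arrays; Morc3, Ror2, Akr1c21, Akr1c18, Mis18a, Mrap2, Tsc22d3, Cpa3, Cma1, Adipoq and Alb were named after their values were seen. Alternatives were other arrays in the fit, probe set rules, scalings, a filter keeping the upper 60% of genes by mean, a robust prior, array weights, a replicate block and each array left out. Sequences came from RefSeq.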

Additional observations from a re-analysis of the deposited data

How the results depend on the processing

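All 10 members kept both arrays outside the other 33 under the 4 alternatives run for them. In the tests, all 32 calls of single members kept their direction under every alternative that gave a value, and 1145 of 1269 such values stayed past the threshold.

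Including all 35 arrays left 0 members called in the comparisons of young PH 38 h, young PH 48 h and old PH 48 h with sham. It also left 0 for young PH 24 h, 38 h and 48 h, old PH 48 h, young sham and old sham against 0 h. That fit adds the 6 arrays of old PH 24 h and old PH 38 h, the 2 divergent ones among them, to the shared spread. With 33 arrays, 1 member was called for young PH 38 h against sham, 0 for young sham and 2 for old sham against 0 h. The filter on dim genes used the mean over all 35 arrays, so a member could pass it by its levels on the 2 divergent arrays. Rab30 passed with a mean of 7.78, and it read 12.72 and 12.45 on those arrays against a median of 7.43 on the other 33. Without dim genes 6 members were left to test. The counts of members called were then 1 for young PH 38 h against sham and 2 for old PH 48 h against sham. They were 2 for young PH 38 h against 0 h and 2 for old sham. With only the arrays compared they were 1 for young PH 24 h, 0 for young PH 38 h and 3 for old PH 48 h against sham, 6 for young sham against 0 h and 1 for old against young sham. Repeated quantile normalization gave 1 for young PH 24 h and 4 for old PH 48 h against sham and 4 for young sham. Array weights gave 2 for young PH 24 h and 4 for old PH 48 h against sham. Centring on medians gave 2 for old PH 48 h against sham, and a robust prior gave 1 for young sham. The replicate numbers did not pair the arrays: over 125 pairs with the same number in different groups, deviations from the group means correlated at a median of 0.0046 (-0.225 to 0.447). With them as a replicate block the counts were 2 for old PH 48 h against sham and 4 for young sham against 0 h. The cause of these changes in count was not tested.

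Leaving out 1 array gave 0 to 1 members for young PH 24 h, 1 to 3 for young PH 38 h, 2 to 6 for young PH 48 h and 1 to 4 for old PH 48 h against sham. It gave 1 to 3 for young PH 24 h against 0 h, 1 to 3 for young sham and 2 to 5 for old sham. The single young sham 38 h array could not be left out.

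Calls over all genes, with the range over the alternatives, which include a test of every probe set, were 809 (129 to 1851) for young PH 24 h against young sham 24 h, 2264 (426 to 3880) for young PH 38 h against young sham 38 h, 5104 (2723 to 9737) for young PH 48 h against young sham 48 h, 4434 (2091 to 8483) for old PH 48 h against old sham 48 h, 4963 (3163 to 10148) for young PH 24 h against young 0 h. For the rest they were 7366 (5537 to 16790) for young PH 38 h against young 0 h, 6668 (5073 to 14665) for young PH 48 h against young 0 h, 4705 (3075 to 9465) for old PH 48 h against old 0 h, 7673 (5338 to 17649) for young sham against young 0 h, 6694 (4347 to 16019) for old sham against old 0 h. They were 125 (37 to 266) for old 0 h against young 0 h, 58 (9 to 198) for old sham against young sham, 60 (12 to 183) for old PH 48 h against young PH 48 h and 0 (0 to 3) for the PH response at 48 h, old against young.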

Other observations

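Genes outside the 10 reached like differences in the 2 arrays. Among the higher ones, Sult1e1, the estrogen sulfotransferase, had 4.17 log2 in old PH 24 h replicate 1 and 5.94 in old PH 38 h replicate 3. Plin4, a lipid droplet protein, had 3.03 and 4.29, Cidec, which enlarges lipid droplets, 2.83 and 4.75, and Ier3, an early response gene, 2.74 and 4.70. Lyve1, the hyaluronan receptor of sinusoidal endothelium, had 2.42 and 2.72. Among the lower ones, Slco1b2 had -5.33 and -6.08, Fam47e -4.64 and -5.57, Serpina7, the thyroxine-binding globulin, -4.18 and -4.28, and Akr1c20 -4.08 and -5.78. Ppp1r3c, a subunit that directs a phosphatase to glycogen, had -4.37 and -4.42. Further probe sets of Lyve1 (3.22 and 4.06) and Slco1b2 (1452494_s_at, -5.46 and -6.21) had differences of the same sign, and those of Slco1b2 at 1427825_at (-0.26 and -0.12) and 1452569_at (0.13 and 0.04) were near 0.

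The genes whose levels were most like the mean of the standardised values of the 10 members over all 35 arrays were Wdr73 (correlation 0.964), Ptdss2 (0.963), Hmga2-ps1 (0.962), Als2cl (0.956) and Slc7a6 (0.953). Over the 29 arrays of the other groups the closest genes were Rusc2 (0.748), Arsj (0.6999), C9orf72 (0.681), Il1r2 (0.651) and Colgalt2 (0.650), so that no gene was among the top 5 on both measures. Wdr73 had differences of 2.02 and 2.31 in the 2 arrays and Il1r2 of 1.78 and 2.29, while Arsj had -0.04 and 0.09. The measure over 35 arrays includes the 2 arrays by which the members were chosen.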
